A study of Mus musculus with 4 samples.

Results

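The genes described here are the protein-coding genes at the far end of the long arm of chromosome 21, the distal part of band 21q22, in a human T cell line. A gene was a member if its row in the gene count table lay on chromosome 21, started at position 39184176 (the start of BRWD1) or later, was annotated as protein-coding and held at least 15 reads over the 4 libraries. The genes MX1, MX2, ITGB2, LSS and NDUFV3 meet these criteria and were left out. This gave 56 members among 92 protein-coding rows of the stretch and 58735 rows of the table. The sources used here do not name the genome build of these coordinates. The stretch was selected on the measured log2 fold changes of these same 4 libraries, in which neighbouring genes there were lower as a group. The lower levels of its members therefore describe how it was chosen. Calls made across all genes are counted for them below as a description only, with no p-value for a member, and support nothing.

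All 4 libraries are labelled as Jurkat cells, a human line from a T cell leukaemia. There were 2 libraries labelled wild-type and 2 labelled as knockout of MATR3 by CRISPR-Cas9, all grown in the same serum-supplemented medium with antibiotics. Matrin 3, the product of MATR3, binds RNA and DNA in the nucleus. The labels do not say whether the knockout cells were a single clone or a pool, or whether replicates came from separate cultures, so the spread between replicates may be technical. They name the organism as mouse, but the cell line and every gene identifier in the table are human.

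Distal 21q22 is one of the most gene-dense parts of chromosome 21, and its genes are carried in an extra copy in Down syndrome. They share a location and not a pathway. Among them are genes of ribosome assembly (RRP1, RRP1B, PWP2), protein modification (SUMO3, UBE2G2), chromatin structure (HMGN1), the centrosome (PCNT), folate uptake (SLC19A1), T cell signalling (UBASH3A) and collagens (COL6A1, COL6A2, COL18A1). In T cells, UBASH3A dampens signalling from the T cell receptor.

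The total number of counted reads ranged from 15008554 to 17477643 per library. One MATR3 row held 19 and 9 reads in wild-type, against 42 and 61 reads in the knockout-labelled pair, and the other held at most 5 reads in any library. These few reads were higher, not lower, under the knockout label. The 2 rows overlap along most of their length, so reads on the shared bases cannot be assigned to either row alone. The counts therefore cannot show whether MATR3 was lost. Every direction below compares libraries by their labels, and whether both groups hold the labelled cells was not tested. T cell markers were present in all 4 libraries, with a summed level of 3257 and 3029 CPM (counts scaled to library size) in wild-type and 1327.5 and 1284 CPM in the libraries labelled knockout. Of 12 T cell markers, 11 were lower and none was higher by edgeR's test, and none was at 0. By the same test 32.3% of all 15294 tested genes were lower and 33.7% higher, which applies to each marker count here. All 11 testable myeloid markers of 12 listed were higher, with summed levels of 37.0 and 34.3 CPM in wild-type and 5756 and 5643 CPM in the libraries labelled knockout, and ELANE, CSF3R and LYN had 0 reads in wild-type. Of 4 epithelial markers 2 could be tested and both were higher, with summed levels of 13.01 and 10.9 CPM against 122.1 and 123 CPM, while EPCAM was at 0 throughout and CDH1 at 0 under the knockout label. Of 4 B cell markers 1 was lower and 1 higher, with sums of 16.2 and 13.8 CPM against 9.40 and 8.41 CPM, PAX5 at 0 in wild-type and MS4A1 at 0 in all libraries. The 3 erythroid markers summed to at most 0.439 CPM in any library, with HBB at 0. Reads of mitochondrial genes made up 5.31% (95% Wilson interval 5.30 to 5.32) and 4.92% (4.91 to 4.93) of wild-type counts, and 9.49% (9.47 to 9.50) and 9.33% (9.31 to 9.34) of the others. These intervals cover counting error only. The part of these shifts in the results below was not tested.

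Genes of distal 21q22 were mostly lower in the libraries labelled knockout, and by moderate amounts. Summed over the 56 members, the level was 4535 and 4451.5 CPM in wild-type and 2979 and 2999 CPM in the libraries labelled knockout. The median log2 fold change over the 53 members with enough reads to be tested was -0.61, with the middle 50% of members between -1.14 and -0.11, against a median of 0.02 over all 15294 genes tested. In bulk RNA, fewer expressing cells and less RNA per cell cannot be told apart. By edgeR's quasi-likelihood test at an adjusted p of 0.05, 35 of the 53 were called lower and 7 higher, where 32.3% of all tested genes were called lower and 33.7% higher. Among tested protein-coding genes alone, 35.3% were lower and 34.8% higher. On chromosome 21 before the stretch, leaving out rows under 9 Mb, 62 protein-coding genes were tested. Of these, 28 (45.2%) were lower and 20 (32.3%) higher. Both knockout-labelled libraries lay below both wild-type libraries for 38 members and above them for 6, against 40.4% and 41.6% of all tested genes. Changes of at least 2-fold were a minority, with 17 members lower and 3 higher by that much. Among all 15294 tested genes, 1688 were lower and 2467 higher by that much. Because the stretch was picked for being low in this contrast, nothing is read from these shares and counts.

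**Figure D1:**
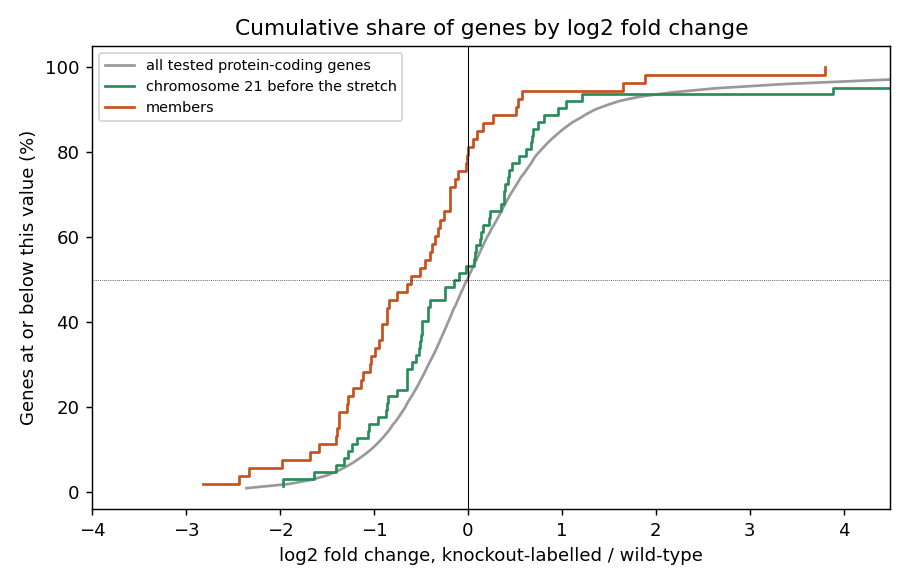
Cumulative percentage of genes (y axis) at or below each log2 fold change (x axis) for the 53 tested members, 62 tested protein-coding genes nearer the centromere on chromosome 21 and all 12768 tested protein-coding genes. The members' curve crosses 50% at -0.61, that of the genes before the stretch at -0.12 and that of all protein-coding genes at -0.01.

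The lower levels were spread along the stretch, which spans 7.48 Mb. In successive runs of 10 tested members from BRWD1 towards the telomere, the median log2 fold change was -0.23 (BRWD1 to ABCG1), -1.08 (TMPRSS3 to SIK1), -0.61 (HSF2BP to ICOSLG), -0.70 (PFKL to POFUT2) and -0.56 (COL18A1 to PCNT). The last 3 members, DIP2A, S100B and PRMT2, had log2 fold changes of 0.00, -1.28 and -0.84. Across the 53 members, Spearman's correlation of the log2 fold change with position was 0.04. The first member, BRWD1, overlapped between the groups, while the genes just outside the limit did not. PSMG1, a proteasome assembly chaperone that ends just before BRWD1 begins, stood at 101.2 and 105.5 CPM in wild-type and 57.6 and 55.1 CPM in the libraries labelled knockout. ETS2, a transcription factor gene next to it, stood at 209.4 and 212 CPM and at 68.7 and 66.8 CPM. The 10 tested protein-coding genes just before the stretch, from DOP1B to PSMG1, had a median log2 fold change of -0.25, so the limit does not mark a point where levels change from unshifted to shifted.

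**Figure D2:**
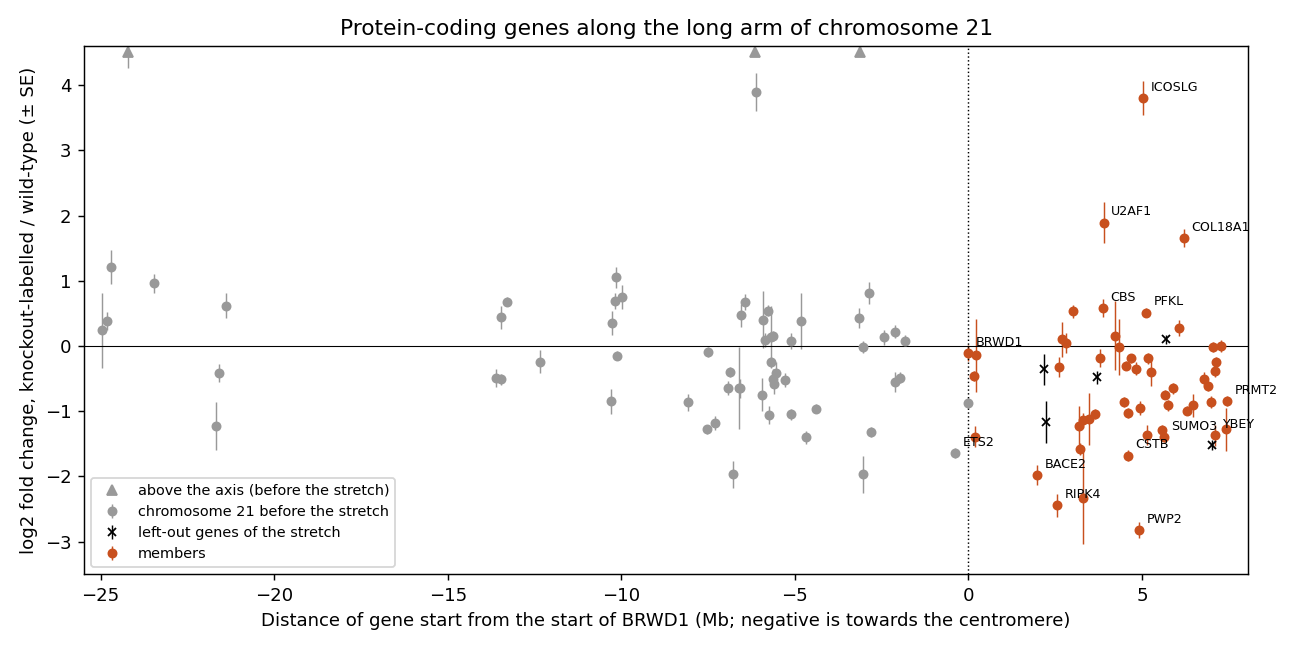
Log2 fold change (y axis, points with standard errors) of tested protein-coding genes by distance from the start of BRWD1 (x axis, Mb). Most members lie below 0 but next to higher ones such as ICOSLG (3.80) and COL18A1 (1.65), and lower genes also occur before the stretch, such as ETS2 (-1.64).

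The read limit of the rule lay among genes that were close to silent. Just inside it were TFF3, FTCD and UMODL1, with 16, 22 and 30 reads over the 4 libraries, and these 3 were too low to test. Just outside it were SH3BGR with 8 reads, DNMT3L with 4, and AIRE and TSPEAR with 3 each. Of the 31 rows under the limit, 25 had 0 reads in every library, among them 16 keratin-associated protein genes. Of the testable members, 22 averaged 50 CPM or more (19 lower, 1 higher) and 23 from 5 to 50 CPM (12 lower, 6 higher). The other 8 averaged under 5 CPM (4 lower, none higher). At all levels together, 32.3% of all tested genes were called lower and 33.7% higher. Shares of all genes within these classes were not counted, so the classes are not compared.

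Per base of gene length, the most abundant members in wild-type were SUMO3 at 147.3 CPM per kilobase, PTTG1IP at 84.4, HMGN1 at 71.8, FAM207A at 58.8 and CSTB at 44.3. In the libraries labelled knockout the order was SUMO3 at 55.8, HMGN1 at 52.2, PTTG1IP at 50.1, PFKL at 42.9 and FAM207A at 31.3 CPM per kilobase. PFKL thus moved from rank 10 to rank 4 and CSTB from rank 5 to rank 11. Members with a shorter deposited gene length tended to be the lower ones. That length can be far below the span on the chromosome, as for PCBP3 (6828 bases, positions 45643694 to 45942454). The correlation of the log2 fold change with gene length was 0.43 over the 53 members and 0.18 over all 12768 tested protein-coding genes, and with the wild-type level it was -0.23 and -0.32. These are correlations across genes of the same libraries, and genes are not independent replicates. The wild-type level is also part of the log2 fold change, so noise in it alone can make that correlation negative, and nothing is read from it.

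Of 10 RNA processing and ribosome assembly genes, 8 were lower and 1 higher, against 32.3% and 33.7% of all tested genes. The median log2 fold change was -0.91. RRP1B, a nucleolar protein of ribosomal RNA processing, stood at 237.5 and 234.7 CPM in wild-type and at 127.5 and 132.7 CPM in the libraries labelled knockout. Its relative RRP1, the human counterpart of a yeast ribosomal RNA processing factor, stood at 164.1 and 149.3 CPM and at 77.4 and 75.8 CPM. In both genes all wild-type values exceeded all others, and the log2 fold changes were -0.86 (SE 0.0716) and -1.03 (SE 0.0769). PWP2, a subunit of the UTP-B complex that starts assembly of the small ribosomal subunit, had a log2 fold change of -2.82 (SE 0.127), the lowest of any member row but -1.64 when its copy row is added, with 73.0 and 94.8 CPM in wild-type and 14.6 and 9.16 CPM in the others. WDR4, the partner of the tRNA methyltransferase METTL1, stood at 114.5 and 115.6 CPM and at 55.6 and 56.2 CPM. ADARB1, an enzyme that edits adenosine to inosine in RNA, stood at 102.4 and 99.0 CPM and at 66.5 and 61.9 CPM. YBEY, a mitochondrial endoribonuclease, was at 38.6% of its wild-type mean. These genes had no overlap between groups. MCM3AP, the scaffold of the TREX-2 messenger RNA export complex, did overlap, at 115.9 and 114.6 CPM in wild-type and 114.1 and 115.6 CPM in the others, with a log2 fold change of -0.01 (SE 0.0751).

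Genes of protein handling and trafficking were lower for 7 of 8 members and higher for none, against 32.3% and 33.7% of all tested genes. Their median log2 fold change of -1.34 was the lowest of the role groups. SUMO3, a small ubiquitin-like modifier, stood at 412.9 and 391.9 CPM in wild-type and at 152.5 and 152.5 CPM in the libraries labelled knockout, a log2 fold change of -1.40 (SE 0.0708). UBE2G2, a ubiquitin-conjugating enzyme of endoplasmic-reticulum-associated degradation, stood at 219.5 and 216.8 CPM and at 87.1 and 91.2 CPM. CSTB, cystatin B, an inhibitor of cathepsins, stood at 177.6 and 171.2 CPM and at 55.0 and 54.1 CPM. Replicates of these 3 genes lay close together and far from the other group, with libraries labelled knockout at 37.9%, 40.8% and 31.3% of the wild-type means. BACE2, an aspartyl protease related to the beta-secretase BACE1, stood at 36.2 and 35.4 CPM and at 10.2 and 7.94 CPM. WRB (GET1), a subunit of the receptor that inserts tail-anchored proteins into the endoplasmic reticulum, stood at 24.2 and 25.2 CPM and at 9.33 and 9.49 CPM. Both were below their wild-type range in both libraries, and WRB overlaps the weakly expressed LCA5L on the opposite strand. PTTG1IP was at 59.4% and TRAPPC10, a subunit of the TRAPPII trafficking complex, at 78.2% of the wild-type mean, and C2CD2 overlapped between the groups. TRAPPC10 was no longer called without knockout-labelled replicate 2 (log2 fold change -0.23).

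**Figure D3:**
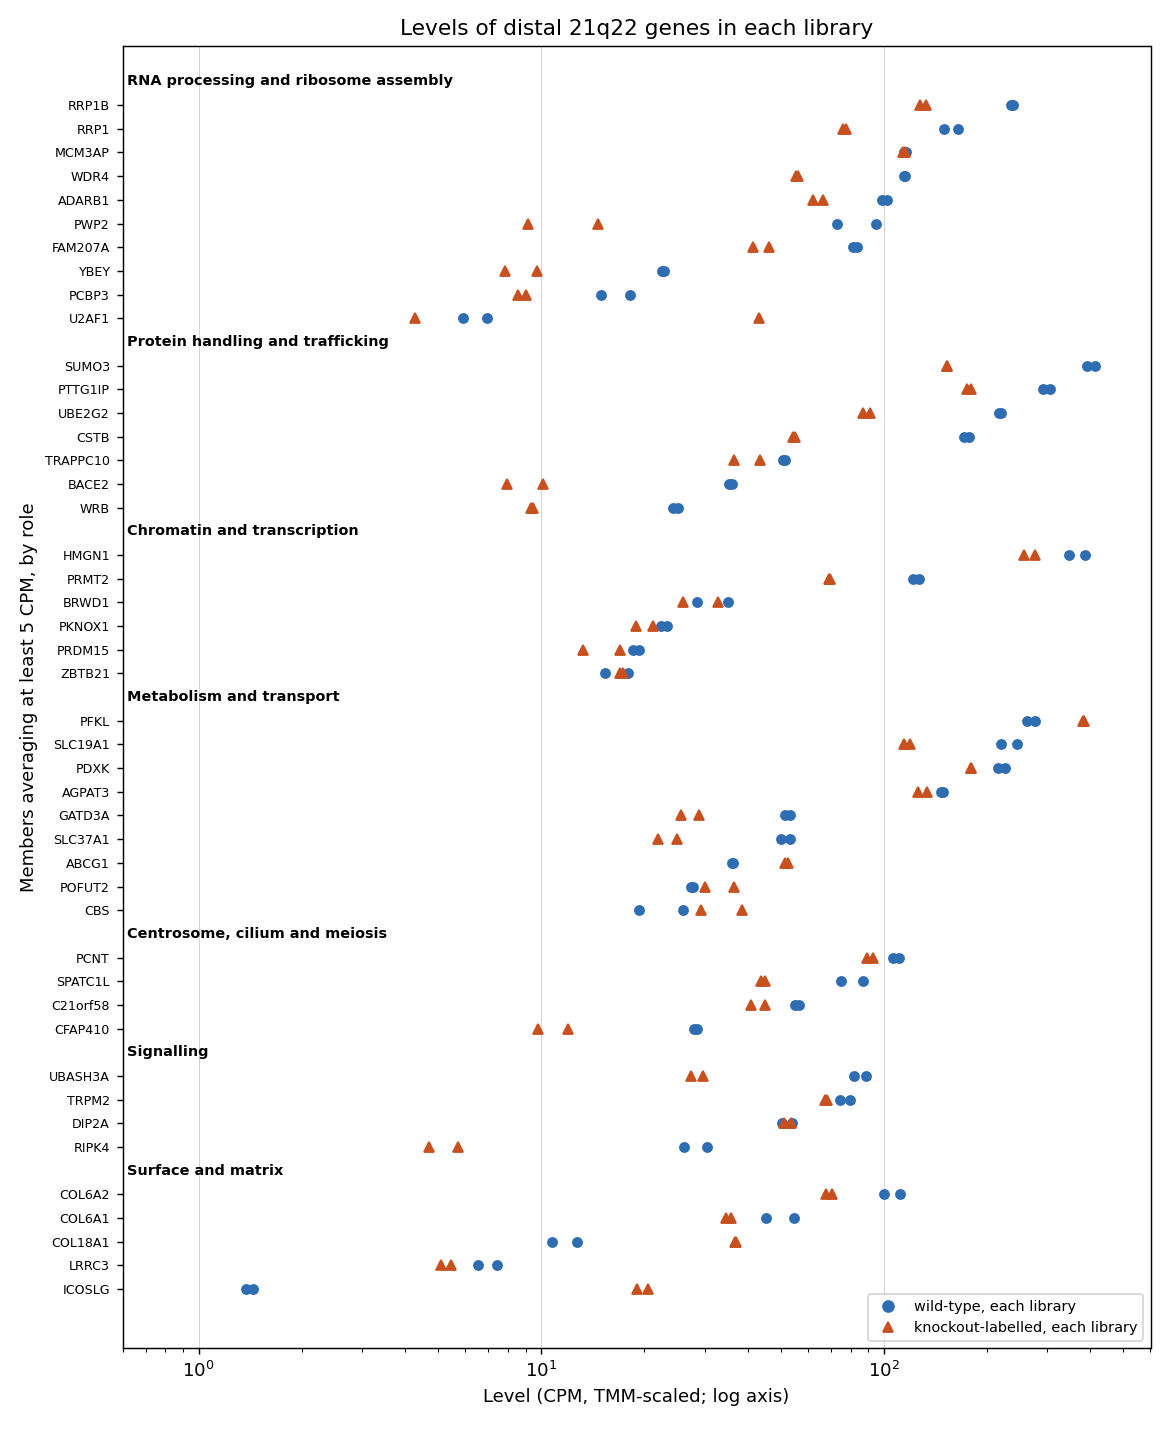
Level in each library (x axis, CPM on a log axis) of the 45 members averaging at least 5 CPM, grouped by role. Knockout-labelled libraries lie left of wild-type for most genes, right of it for PFKL, ABCG1, POFUT2, CBS, COL18A1 and ICOSLG, and on both sides for U2AF1 (4.29 and 43.2 CPM).

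Of 6 tested chromatin and transcription genes, 2 were lower and none was higher, a share lower close to the 32.3% of all tested genes, with a median log2 fold change of -0.25. HMGN1, a nucleosome-binding protein that loosens chromatin, stood at 346.2 and 386.3 CPM in wild-type and at 256.6 and 276.3 CPM in the libraries labelled knockout, with a log2 fold change of -0.46 (SE 0.0711). PRMT2, an arginine methyltransferase and the last member before the telomere, stood at 121.7 and 126.4 CPM and at 69.3 and 69.4 CPM. Both genes were below wild-type in both libraries. BRWD1, a bromodomain protein, stood at 28.4 and 35.1 CPM and at 32.9 and 25.9 CPM, and ZBTB21, a zinc finger gene, at 15.3 and 17.9 CPM and at 17.0 and 17.4 CPM. These 2 genes overlapped between the groups, and their signs depended on the library left out. PKNOX1 and PRDM15 had log2 fold changes of -0.19 and -0.32 and were not called.

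Metabolic and transport genes went both ways, with 6 of 10 tested members lower and 4 higher, against 32.3% and 33.7% of all tested genes. Their median log2 fold change was -0.24. SLC19A1, the reduced folate carrier, stood at 244.6 and 219.9 CPM in wild-type and at 119.1 and 114.7 CPM in the libraries labelled knockout. SLC37A1, a sugar-phosphate exchanger, was at 45.2% and PDXK, pyridoxal kinase, at 81.3% of the wild-type mean. PFKL, the liver-type phosphofructokinase of glycolysis, went the other way, from 276.5 and 261.3 CPM to 384.4 and 381.5 CPM, a log2 fold change of 0.51 (SE 0.0697). ABCG1, a cholesterol exporter, stood at 35.9 and 36.2 CPM and at 51.4 and 52.4 CPM. For these 2 genes the groups did not overlap. CBS, cystathionine beta-synthase, which draws homocysteine into cysteine synthesis, stood at 25.9 and 19.3 CPM and at 38.6 and 29.2 CPM. POFUT2, a protein O-fucosyltransferase, stood at 27.3 and 27.7 CPM and at 30.0 and 36.6 CPM. The groups were separated by narrow gaps in both, and the calls were lost for CBS without knockout-labelled replicate 1 (log2 fold change 0.37) and for POFUT2 without wild-type replicate 2 (0.27) or without knockout-labelled replicate 2 (0.13). POFUT2 was also not called by DESeq2 (0.28), with library totals alone (0.23), without a filter on low counts (0.28) or with the replicate block (0.27).

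Centrosome, cilium and meiosis genes were lower for 5 of 7 members and higher for none, against 32.3% and 33.7% of all tested genes. The median log2 fold change was -0.38. PCNT, pericentrin, a scaffold of the centrosome, stood at 106.0 and 111.0 CPM in wild-type and at 93.2 and 89.3 CPM in the libraries labelled knockout, a small difference that was not called without knockout-labelled replicate 1 (log2 fold change -0.28) or replicate 2 (-0.22). C21orf58 was at 77.0% of the wild-type mean, and without knockout-labelled replicate 1 it was not called (-0.31). CFAP410, a cilium-associated protein, was at 27.9 and 28.4 CPM and at 9.81 and 11.98 CPM, well apart. SPATC1L was at 54.9% of the wild-type mean. RSPH1, a ciliary radial spoke protein, had 26 and 15 reads in wild-type but 2 and 5 reads under the knockout label, and it overlaps SLC37A1 on the opposite strand, whose reads it may share because the sources used here do not give the strand setting.

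Signalling genes were lower for 4 of 6 members and higher for none, against 32.3% and 33.7% of all tested genes. Their median log2 fold change was -0.73. UBASH3A, the suppressor of T cell receptor signalling, stood at 88.8 and 82.1 CPM in wild-type and at 29.6 and 27.4 CPM in the libraries labelled knockout, with a log2 fold change of -1.58 (SE 0.094). It is a gene of T cells, and in the same libraries 11 of the 12 T cell markers were also lower, against 32.3% of all tested genes. The part of the T cell marker shift in the UBASH3A level was not tested. RIPK4, a kinase best known from the epidermis, stood at 30.5 and 26.1 CPM and at 4.70 and 5.72 CPM. In both genes the 2 groups were far apart. TRPM2, a calcium channel opened by ADP-ribose, stood at 79.8 and 74.3 CPM and at 67.3 and 68.1 CPM. It was no longer called without wild-type replicate 1 (log2 fold change -0.11) or either knockout-labelled library (-0.18 and -0.19). DESeq2 (-0.18) and limma voom (-0.19) did not call it either. The call was also lost with RLE (-0.18) or upper-quartile scaling (-0.15). The same held for the 1 CPM filter (-0.18), no filter on low counts (-0.18) and protein-coding rows only (-0.17). DIP2A overlapped between the groups, at 50.4 and 53.8 CPM and at 53.5 and 51.0 CPM. S100B, a calcium-binding protein, had 59 and 73 reads in wild-type but 26 and 22 reads under the knockout label.

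Surface and matrix genes held the largest contrasts between neighbours, with a median log2 fold change of -0.46. Of 6 tested members, 3 were lower and 2 higher, a share higher close to the 33.7% of all tested genes. The share of all tested genes that was lower was 32.3%. ICOSLG, the ligand of the T cell costimulator ICOS, normally found on antigen-presenting cells, stood at 1.38 and 1.44 CPM in wild-type and at 20.4 and 19.1 CPM in the libraries labelled knockout, a log2 fold change of 3.80 (SE 0.256). Among the members it follows GATD3A (-0.95) along the chromosome and precedes PFKL (0.51). The myeloid marker list was higher in the same libraries, and its part in the ICOSLG level was not tested. COL18A1, whose protein is the source of endostatin, stood at 12.7 and 10.7 CPM and at 36.8 and 37.0 CPM, a log2 fold change of 1.65 (SE 0.14). It overlaps SLC19A1 (-0.99) on the opposite strand, and reads from the shared bases cannot be assigned without the strand setting. The collagen VI chain genes COL6A1 and COL6A2 are neighbours and were both lower, from 54.5 and 45.2 to 34.5 and 35.7 CPM and from 111.6 and 100.2 to 70.6 and 67.9 CPM. TMPRSS3, a membrane serine protease, was at 42.8% of its wild-type mean.

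The count table also holds rows on the short arm of chromosome 21 whose names or descriptions match 7 members, and reads may have been split between the rows. Their sequence identity was not measured, and some of these rows span fewer bases than the member. PWP2 and its copy row, which the table describes as a periodic tryptophan protein 2 homologue, together held 1904 and 2041 reads in wild-type, against 608 and 516 reads under the knockout label. The summed level was 32.1% of wild-type, a log2 ratio of -1.64, where the PWP2 row alone was at 14.2%. The sum is less low than RIPK4 (-2.44) and BACE2 (-1.98). The copy row itself held 631 and 529 reads against 393 and 380. ICOSLG and its copy row summed to 24 and 24 reads in wild-type but 383 and 396 reads under the knockout label. GATD3A with GATD3B was at 67.8% of wild-type, against 51.9% for GATD3A alone, because GATD3B had more reads in the libraries labelled knockout (213 and 225, against 175 and 146). CBS with CBSL was at 131.7% and TRAPPC10 with its copy at 80.5% of wild-type. SIK1, a salt-inducible kinase, had too few reads to read a direction (6 and 21 against 12 and 15), while SIK1 with SIK1B summed to 73 and 55 reads in wild-type but 33 and 29 reads under the knockout label.

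U2AF1, the splicing factor that recognises the end of introns, was called higher on the strength of 1 library. Its row held 103 and 111 reads in wild-type but 63 and 642 in the 2 libraries labelled knockout, and its copy U2AF1L5 held 281 and 224 reads in wild-type but 342 and 89 reads under the knockout label. The replicates labelled knockout thus used the rows in opposite proportions. The sum of both rows was 384 and 335 reads in wild-type but 405 and 731 reads under the knockout label, so the second library also stood apart in the sum. The log2 fold change of the U2AF1 row was 1.89 (SE 0.31) and became -0.58 without knockout-labelled replicate 2, and DESeq2 did not call it.

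**Figure D4:**
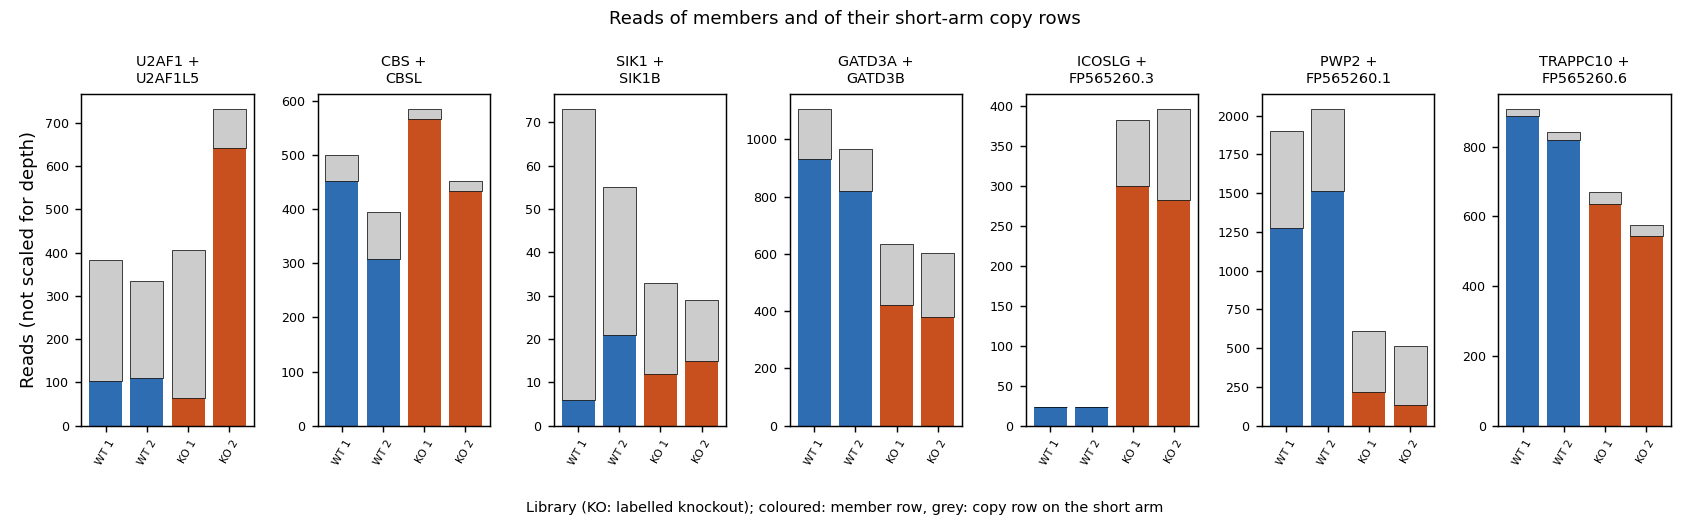
Reads per library (y axis, not scaled for depth) of 7 members (coloured) stacked with their copy rows on the short arm (grey). The sums are lower in the libraries labelled knockout for SIK1, GATD3A, PWP2 and TRAPPC10, higher for ICOSLG, and for U2AF1 the last library alone is high (642 of 731 reads in the member row).

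Many members work with, or are related to, proteins encoded elsewhere, and 65 such partner and relative genes were listed. Of the 62 tested, 28 were lower and 19 higher by edgeR's quasi-likelihood test, with a median log2 fold change of -0.07. The shares of all tested genes were 32.3% and 33.7%, as above. The stretch was not chosen on the values of these genes, but the list was drawn up with earlier results of these data known. The examples below were picked with their values known, so their calls and p-values are given as descriptions only. Differences between a member and its partners were not tested, since the members were chosen for their values.

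Relatives of some lower members were lower too. SUMO2 fell by 0.65 (SE 0.0719, adjusted p = 8.7e-13, edgeR) on the log2 scale, beside -1.40 for SUMO3. The nucleosome-binding relatives of HMGN1 fell as well, with log2 fold changes of -0.48 for HMGN2, -1.60 for HMGN3 and -0.21 for HMGN4. The 4 listed TRAPP subunits fell by 0.46 (TRAPPC9) to 0.96 (TRAPPC1). METTL1, the partner of WDR4, fell by 0.72 (SE 0.142, adjusted p = 8.53e-06, edgeR). Among the folate pathway genes listed beside SLC19A1, FPGS, SHMT1 and MTHFD1 fell and the mitochondrial enzyme gene SHMT2 rose from 547.9 and 505.2 to 945.5 and 941.3 CPM.

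Other relatives rose beside a member that was lower or did not pass the threshold. UBASH3B, the broadly expressed relative of UBASH3A, rose from 34.3 and 35.8 to 67.4 and 73.0 CPM (log2 fold change 1.00, SE 0.0939, adjusted p = 1.01e-15, edgeR). BACE1 rose from 1.55 and 2.63 to 3.20 and 4.71 CPM, beside the lower BACE2. BRWD3 and PHIP, the relatives of BRWD1, rose by 1.62 and 1.28 on the log2 scale. DIP2C rose by 2.14, while DIP2B, like DIP2A, did not pass the test. COL6A3, the third chain of collagen VI, passed the test as higher but at low levels (1.23 and 1.14 CPM in the libraries labelled knockout). The relatives of PFKL went both ways. The muscle-type phosphofructokinase gene PFKM rose from 3.55 and 4.83 to 64.2 and 65.3 CPM, and the platelet-type gene PFKP fell from 518.9 and 481.8 to 226.7 and 222.8 CPM, while PFKL was higher.

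Partners within some complexes moved in different directions. Of the UTP-B partners of PWP2, TBL3 and UTP18 fell by 0.52 and 0.68, WDR36 rose by 0.44 and UTP6 and WDR3 did not pass the test (log2 fold changes 0.07 and 0.14). The 3 listed centrosomal partners of PCNT rose while PCNT was lower, CDK5RAP2 by 0.53, NEDD1 by 0.63 and AKAP9 by 1.51. Of the TREX-2 partners of MCM3AP, ENY2, SEM1 and CETN2 fell by 0.58, 0.65 and 1.19, and PCID2 and CETN3 did not pass (0.03 and -0.05). U2AF2, the large subunit that pairs with U2AF1, fell by 0.78 (SE 0.0696, adjusted p = 1.06e-16, edgeR). The other genes listed for U2AF1, SF1, ZRSR2 and U2AF1L4, did not pass (log2 fold changes -0.14, 0.55 and 0.08). The U2AF1 call itself rested on 1 library, so its direction is not compared with theirs. ASNA1 (GET3), which hands tail-anchored proteins to WRB, fell by 0.78 and CAMLG, the other subunit of that receptor, rose by 0.24.

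**Figure D5:**
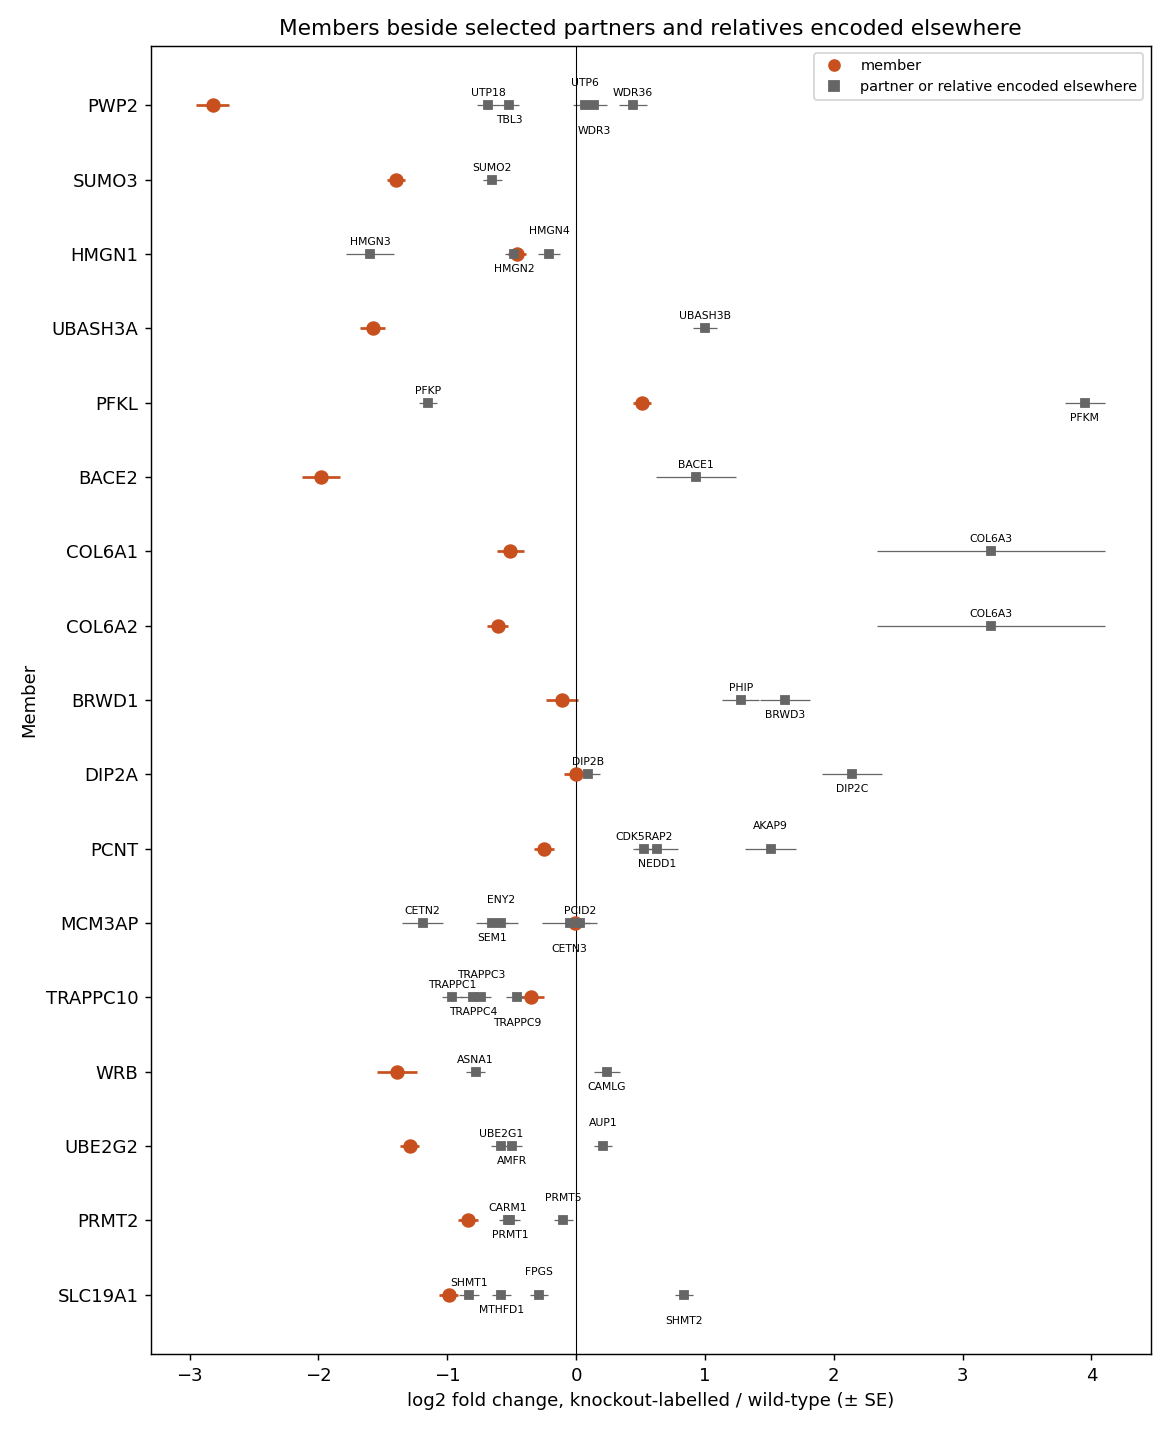
Log2 fold change with standard error (x axis) of 17 members (circles) and of selected partners or relatives encoded elsewhere (squares). Squares lie on the same side as the circle for SUMO3, HMGN1 and TRAPPC10, on the other side for UBASH3A, BACE2 and PCNT, and on both sides of 0 for PWP2, PFKL and SLC19A1.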

How the data were processed

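The authors deposited 1 table of raw read counts, with a row per gene and a column for each of the 4 Jurkat libraries. Its gene lengths, in bases, were also deposited and were used for levels per kilobase. Tools listed per the submitters' processing notes are CASAVA 1.8, HISAT2 2.0.5 and featureCounts 1.5.0-p3. The sources used here do not say what each tool did, nor how strand or multiply mapping reads were handled. The libraries held 15008554 to 17477643 counted reads.

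All genes were fitted together in edgeR 4.0.16 (R 4.3.3) with TMM scaling, filterByExpr (minimum count 10, minimum total 15), a two-sided quasi-likelihood test and Benjamini-Hochberg adjustment over 15294 genes at 0.05. CPM values carry the TMM factors. Standard errors come from the fitted model. The steps were tested on simulated data first. Replicates differed beyond sampling noise, so each library was 1 replicate. Same-numbered libraries were not treated as pairs. Alternatives used limma 3.58.1 and DESeq2 1.42.0, other scalings and filters, a replicate block and leaving out each library.

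The members, role groups and partner list were chosen with earlier results of these data known. Members were named by a rule. Among those of at least 5 CPM it takes the 8 lowest and 8 highest log2 fold changes, the 8 most abundant, the 5 nearest each end, the 3 most abundant per role and those with copy rows. Outside it, RSPH1, S100B, TMPRSS3, CFAP410, SLC37A1, WDR4, ADARB1, PKNOX1, PRDM15, C2CD2, LCA5L, PCBP3 and FAM207A were named with their values already known. The partners given as examples were picked in the same way. No human genome was used here, so no sequences are shown. Some listed genes are not reported here.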

Additional observations from a re-analysis of the deposited data

How the results depend on the processing

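The median log2 fold change of the tested members was below 0 in every alternative tried. Their median log2 fold change of -0.61 was -0.66 with library totals alone, -0.56 without a filter on low counts (which adds the 3 members with the fewest reads), -0.56 with the 5 left-out genes put back and -0.70 without members that have a copy row. Without the copy-row members, 4 and not 7 were called higher. Leaving out each library in turn gave medians from -0.69 to -0.58, 30 to 34 members called lower and 5 to 7 called higher. For the partner genes it gave 25 to 31 lower and 16 to 21 higher. DESeq2 called 32 members lower and 5 higher. With the replicate block the counts were 35 lower and 6 higher, the call lost being POFUT2, and 29 and 19 for the partner genes. Deviations of same-numbered libraries had a correlation of 0.0278 across genes. With 2 libraries a group, this cannot decide whether same-numbered samples were paired. For 36 named members, 429 values under these alternatives kept direction and call, 22 lost the call and 16 changed sign. TRPM2 lost its call most often. Leaving out each library gave U2AF1 log2 fold changes from -0.58 to 2.75. The other sign changes were in members that were not called. Leaving out each library gave -0.29 to 0.06 for BRWD1 (0.03 without wild-type replicate 2), -0.04 to 0.15 for ZBTB21, -0.50 to 1.37 for SIK1, -0.03 to 0.04 for DIP2A (-0.02 without wild-type replicate 1) and -0.03 to 0.02 for MCM3AP. With library totals ZBTB21 stood at -0.001 and DIP2A at -0.04. MCM3AP stood at 0.003 with RLE scaling, DESeq2, the 1 CPM filter or without knockout-labelled replicate 1, at 0.03 with upper-quartile scaling and at 0.01 with protein-coding rows only. The cause was not tested. With 2 libraries a group, members under about 100 reads have wide errors, such as SIK1 (SE 0.536).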

Other observations

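Rows of the same stretch that code for no protein had mostly negative log2 fold changes, 13 of the 18 tested. Of 29 non-coding and pseudogene rows with at least 15 reads, 18 could be tested, with a median log2 fold change of -0.88. Of these 18, 9 were called lower and 2 higher, against 32.3% and 33.7% of all tested genes. Some rows overlap members, such as AP001062.1 with CFAP410 and MCM3AP-AS1 with MCM3AP. Reads on the shared bases cannot be assigned without the strand setting. LINC00205 stood at 56.1 and 56.9 CPM in wild-type and at 31.7 and 31.5 CPM in the libraries labelled knockout, and LINC01547 at 26.5 and 23.7 CPM and at 9.74 and 10.9 CPM. The largest difference in the stretch was in the opposite direction. LINC01694, a long intergenic RNA between SLC19A1 and PCBP3 (chromosome 21, 45593654 to 45603056), had 28 and 17 reads in wild-type and 2012 and 1972 reads in the libraries labelled knockout, or 1.61 and 1.07 CPM against 137 and 132.7 CPM. Its log2 fold change was 6.64 (SE 0.219), while SLC19A1 on one side stood at -0.99 and PCBP3 on the other at -0.91. AATBC, an antisense RNA, had 10 and 20 reads against 45 and 39. These rows belong to the contrast and stretch that were chosen for being low, so they are given as values only.

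Among the 5 left-out genes, the integrin beta 2 gene ITGB2 stood at 317.5 and 281.6 CPM in wild-type and at 322.2 and 320.4 CPM in the others, and LSS, lanosterol synthase, at 206.6 and 203.3 CPM and at 76.8 and 66.0 CPM.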
